A study of Homo sapiens with 4 samples.

Results

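The TMEM126A knockdown in MDA-MB-231 cells is described here gene by gene. Its members are the genes whose mean normalized count over the knockdown library and its control library was at least 100, which held for 11091 of the 39261 genes listed. The rule used the level of a gene and not its difference between the libraries. SNHG19 was the lowest gene inside the limit, with a mean of 100.002, and C16orf93 the highest outside it, with 99.99. Their ratios were 0.988 and 1.03.

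MDA-MB-231 is a triple-negative human breast cancer line with a mesenchymal character. The knockdown cells and their controls were infected with lentivirus, grown in L15 medium with 10% fetal bovine serum and taken at passages 10 to 15. The control carried a vector named sh-NC in the design text. TMEM126A was overexpressed in a second line, MCF10-Ca1a (Ca1a), which derives from the mammary epithelial line MCF10A and is malignant, beside a control vector named pCDH there. Ca1a cells had 5% horse serum in their DMEM/F12 medium, with insulin, epidermal growth factor, cholera toxin and hydrocortisone added. The labels name neither the sequence nor the number of hairpins, and do not say whether the cells were a pool or a clone. Depth was 21405193 reads for the knockdown and 20673373 reads for the control. Each of the 4 groups held 1 library, so no difference has a replicate check, no p-value was computed, and an effect of the knockdown cannot be told apart from any other difference between the cultures or from off-target effects of a hairpin.

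TMEM126A encodes a multipass protein of the mitochondrial inner membrane that acts in the assembly of respiratory complex I, and inherited loss of it causes optic atrophy. Assembly factors hold together parts of complex I while it is built and are absent from the finished enzyme. Mitochondrial faults are known to reach the nucleus through the integrated stress response, in which phosphorylation of the initiation factor eIF2 raises translation of the transcription factor ATF4, an activator of amino acid transport, amino acid synthesis and glutathione genes. Misfolded protein in the endoplasmic reticulum (ER) acts through ATF6, IRE1 and PERK, the last of which also feeds into ATF4. Other known routes from mitochondria to the nucleus include release of mitochondrial nucleic acids, which cytosolic sensors detect and which induces interferon-stimulated genes.

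The target transcript was low in the library labelled knockdown. TMEM126A had 559 normalized counts in the control and 22.9 in the knockdown library, which is 24.5-fold lower (16.1 to 38.9). Here and below, brackets after a fold or a ratio give its 95% counting interval (exact conditional binomial), which covers counting error only. Scaled to length and depth, its level was 35.5 FPKM (fragments per kilobase of transcript and per unit of depth) against 1.07 FPKM. The gene occupies chr11:85647967-85656547 (plus strand, GRCh38). The 7 other measured genes within 1 Mb of it had ratios from 0.914 (ME3, a mitochondrial malic enzyme gene) to 1.12 (SYTL2, a vesicle transport gene). The paralog TMEM126B, which lies next to it and also encodes an assembly factor, had 1597 and 1547 counts. None of these neighbours was called different by the rule below.

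The other genes that build complex I stayed close to their control level. Of 18 measured assembly factors, 17 were not called and TMEM126A was lower. Their ratios without TMEM126A ran from 0.90 for TMEM261 to 1.14 for NDUFAF1, and each counting interval held 1. NDUFAF1, which acts early in assembly with ECSIT and ACAD9, had 243 and 277 counts. ECSIT had 757 and 747, and ACAD9 1183 and 1155, so these partners lay on both sides of 1. NDUFAF2, a late-acting factor, had 595 and 573 counts, and TIMMDC1, a membrane factor, 929.7 and 1002.

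**Figure D1:**
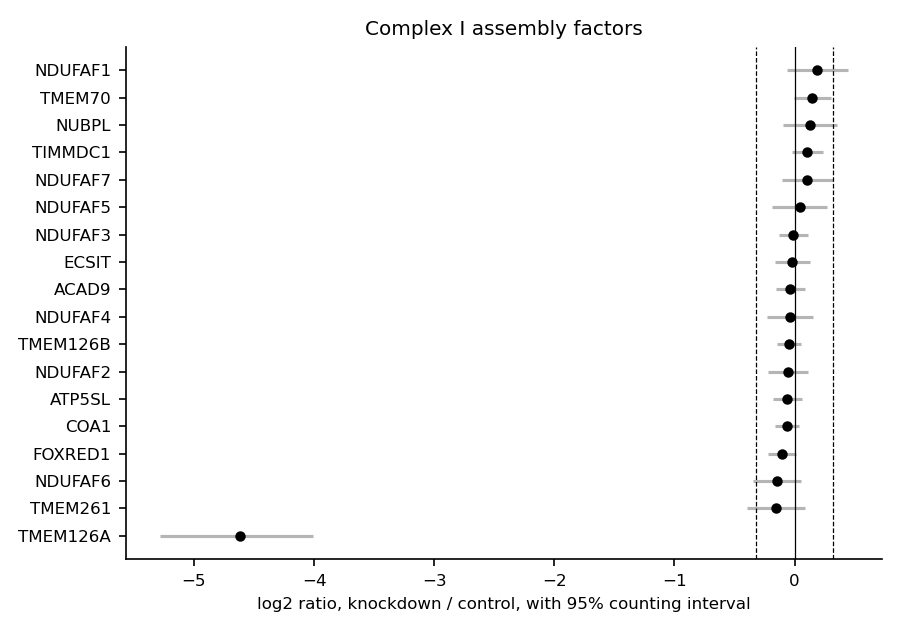
Log2 ratio of knockdown to control (horizontal axis) for the 18 measured complex I assembly factors, with 95% counting intervals as bars and dashed lines where the lower value is 80% of the higher. TMEM126A stands apart at a ratio of 0.0409, and the other 17 genes lie between 0.90 and 1.14.

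No complex I subunit gene was called in either direction among 35 measured, with ratios from 0.914 (NDUFS6) to 1.18 (NDUFC2) and a median log2 ratio of 0.02. The same count of 0 held for 19 mitochondrial chaperones and proteases, 23 genes of import and insertion into the inner membrane and 30 genes of the TCA cycle. CHCHD4, whose product oxidises imported proteins and aids complex I biogenesis, had the highest ratio of the import genes, with 705 counts in the control and 858 in the knockdown library, a ratio of 1.22 (1.1 to 1.35). OMA1, the stress-activated protease that signals to the integrated stress response, had 313 and 354 counts. HSPD1, the main mitochondrial chaperonin gene, stood at 10191 and 10150.1. The pyruvate carboxylase gene PC was the highest TCA cycle gene, at a ratio of 1.22.

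Genes were called higher or lower where the lower of the 2 normalized counts was at most 80% of the higher and the counting interval of the ratio left out 1. By this rule 382 genes were higher (3.44% of 11091) and 202 lower (1.82%) in the knockdown library. At a size of 1.5-fold, 71 genes were higher (0.64%) and 26 lower (0.234%). Log2 ratios had a median of 0.01 and a standard deviation over genes of 0.17, and for 94.3% of genes the libraries were closer than the 80% size. The ratio was above 1 for 54.2% of genes. Past 2-fold stood 3 genes on the higher side, AGR2, CST4 and the long noncoding RNA gene SLCO4A1-AS1, and 2 on the lower side, TMEM126A and ANGPTL4. The balance of calls depended on scaling: with libraries scaled by their total reads, 304 genes were higher and 282 lower, so that the higher side held 51.9% of calls in place of 65.4%. Of the genes called, 30 higher ones had a control level under 100 and 17 lower ones a knockdown level under 100, so those passed the limit through the library in which they were high. Called genes were more frequent at low levels: 9.06% were higher and 4.73% lower in the lowest of 5 equal classes of mean count, against 1.58% and 0.361% in the highest class. In these bulk libraries, fewer cells with a transcript and less of it per cell cannot be told apart.

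**Figure D2:**
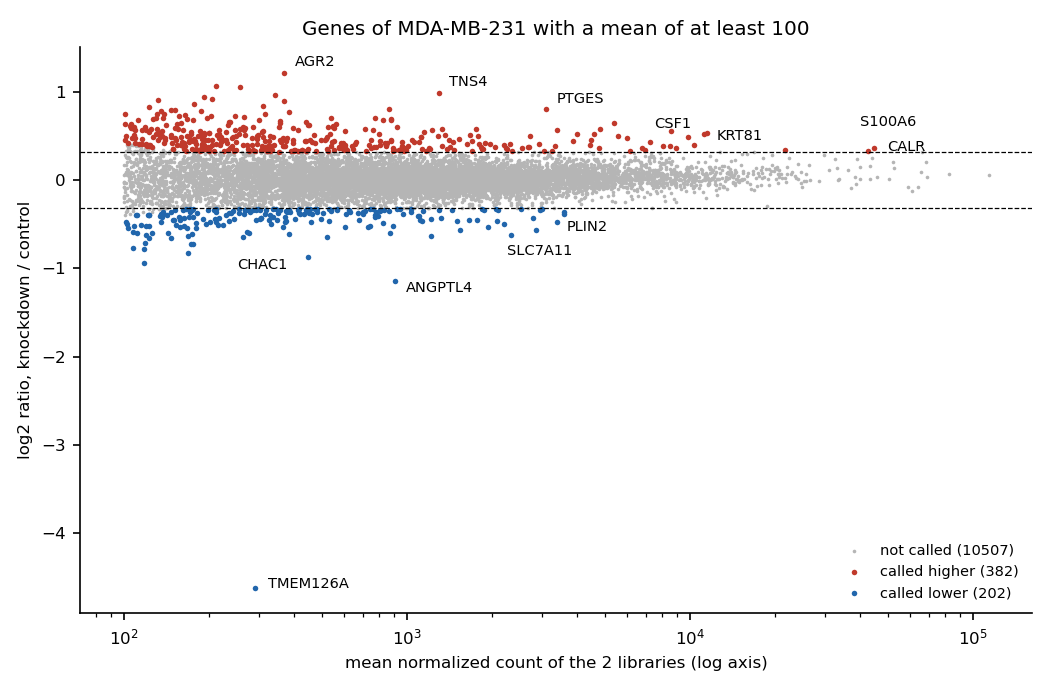
Log2 ratio of knockdown to control against the mean normalized count of the 2 libraries (log axis), 1 point a gene, with dashed lines where the lower value is 80% of the higher. The 382 genes called higher are red and the 202 called lower blue, and TMEM126A lies far below all others.

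The 15 protein-coding genes with the largest ratios on the higher side ran from AGR2 down to APLN and have varied known roles. AGR2, a protein disulfide isomerase of mucus-secreting epithelia, had 222 counts in the control and 516 in the knockdown library, 2.32-fold higher (1.98 to 2.73). SPDEF, a transcription factor of goblet and luminal secretory cells, had 629.9 and 1096, 1.74-fold higher (1.58 to 1.92). PTGES, the inducible prostaglandin E synthase, had 2264 and 3944, 1.74-fold higher (1.65 to 1.84), and the highest level per length of the 15, with 58.5 FPKM and 99.7 FPKM. Each of these intervals lay above 1.5. TNS4, a focal adhesion adaptor that binds integrin tails, stood at 870.4 and 1726 counts, 1.98-fold higher (1.83 to 2.15). RASD1, a dexamethasone-induced Ras-like protein, stood at 232 and 453, 1.95-fold higher (1.66 to 2.29). SPNS2, the exporter of sphingosine 1-phosphate, stood at 259 and 481, 1.86-fold higher (1.6 to 2.17). With fewer counts came CYTH4, an exchange factor for ARF GTPases (132 and 252 counts), the apelin gene APLN (108 and 186), and CYP3A5, a drug and steroid hydroxylase (88.5 and 157). The cystatin genes CST4 (168 and 349) and CST1 (223 and 399.5) also belong here, as do RNASE4 and NSF, treated below.

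**Figure D3:**
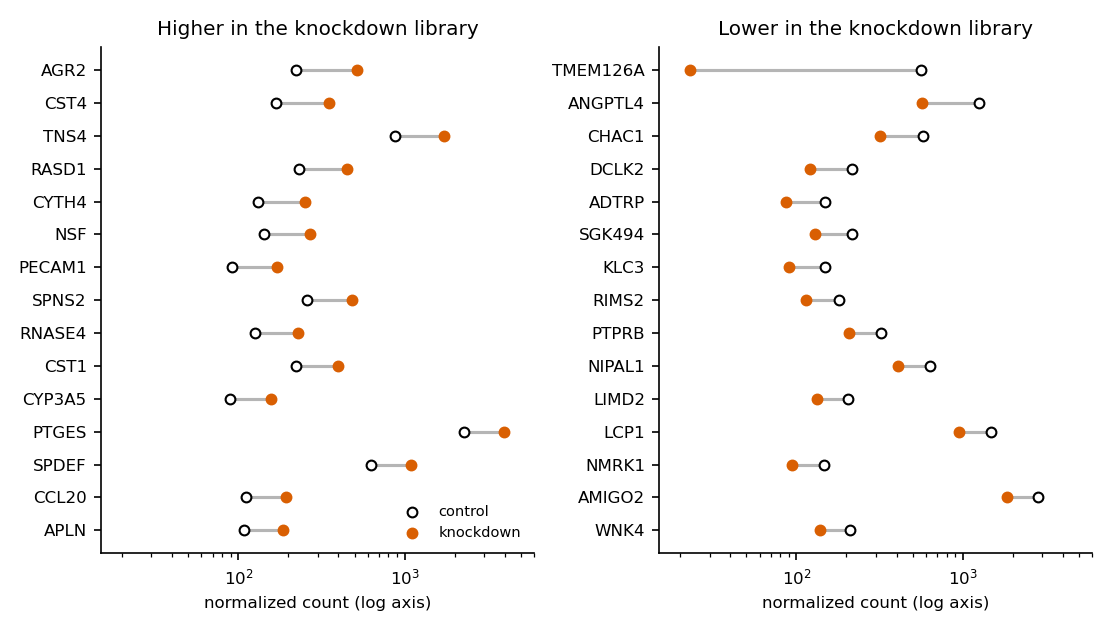
Normalized counts (log axis) in the control library (open circles) and the knockdown library (filled circles) for the 15 protein-coding genes with the largest ratios on each side. Beside TMEM126A, the pairs differ by 1.73-fold to 2.32-fold on the higher side and 1.52-fold to 2.21-fold on the lower side.

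On the lower side, TMEM126A was followed at a distance by ANGPTL4 and CHAC1. ANGPTL4, an inhibitor of lipoprotein lipase, had 1254 counts in the control and 566 in the knockdown library, 2.21-fold lower (2.0 to 2.45). CHAC1, which cleaves glutathione and is induced by ATF4, had 579 and 317, 1.82-fold lower (1.59 to 2.1). LCP1, the actin-bundling L-plastin, had 1481 and 956, 1.55-fold lower (1.43 to 1.68). The intervals of these 3 genes lie wholly past the size. AMIGO2, a cell adhesion protein with leucine-rich repeats, stood at 2831 and 1838 counts, 1.54-fold lower (1.45 to 1.63). NIPAL1, a magnesium transporter, stood at 639 and 409, 1.56-fold lower (1.38 to 1.77), and the receptor phosphatase PTPRB of endothelium at 323 and 207, 1.56-fold lower (1.31 to 1.87). Genes with fewer counts were DCLK2, a microtubule-binding kinase (215 and 121 counts), ADTRP (149 and 86.5), the kinesin light chain KLC3 (148 and 90.4), the nicotinamide riboside kinase NMRK1 (146 and 94.4) and the ion transport regulator WNK4 (210.3 and 138).

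Differences in counts, rather than ratios, picked out abundant genes. Among called genes the largest gains in normalized counts were those of CALR, an ER calcium-binding chaperone (39269 in the control and 50296 in the knockdown library, a difference of 11028), and S100A6, a calcium-binding protein (37772 and 47331, a difference of 9559). IGFBP4, a secreted binder of insulin-like growth factors, had 19129 and 24251, and ADGRF5, an adhesion G protein-coupled receptor, 8938 and 11786. The losses were smaller: PLIN2, the coat protein of lipid droplets, differed by -1116, the cystine transporter gene SLC7A11 by -1110.4, the adhesion protein gene AMIGO2 by -994 and the ER ubiquitin ligase gene MARCH6 by -939. DDAH1, which breaks down methylated arginines (4038 and 3146), PRKAR2A, a regulatory subunit of protein kinase A (3201 and 2378), and LRRC58 (2588 and 1834) followed.

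Genes of ER protein folding were higher in the knockdown library in the largest number of any ER list. Of 27 measured chaperones and foldases, 9 were called higher, 0 lower, and 25 had a ratio above 1, with a median log2 ratio of 0.25 against 0.01 over all genes. Among all genes 3.44% were called higher and 54.2% had a ratio above 1. SDF2L1, a partner of BiP, had 418 counts in the control and 635 in the knockdown library, 1.52-fold higher (1.34 to 1.73). CRELD2, an ER stress-induced secretory protein, had 439.7 and 631, 1.44-fold higher (1.27 to 1.62), and MANF, which binds BiP and is partly secreted, 2518 and 3335, 1.32-fold higher (1.26 to 1.4). The BiP co-chaperone genes DNAJB11 (2326 and 3025) and DNAJC3 (1633 and 2083) and the ER oxidase gene ERO1LB (321 and 420.4) were also called. Just under the size stood the BiP gene HSPA5, at 58712 and 73136 counts and a ratio of 1.246, and the disulfide isomerase gene PDIA4, at 15035 and 18720.0 and a ratio of 1.245. PDIA5 stood lowest, with a ratio of 0.952 (0.837 to 1.08). Of the 32 genes of the list, HYOU1 and AGR3 are listed at 0 in every library and 3 others had means under 100.

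Neighbouring steps of the secretory path had smaller medians in the same direction. Of 27 genes of the translocon, signal peptidase and glycan transfer, 25 had a ratio above 1 and 1 was called higher, the signal peptidase subunit gene SPCS2 (521 and 688 counts, 1.32-fold higher, 1.18 to 1.48), with a median log2 ratio of 0.12. For COPII and Golgi trafficking, 25 of 28 ratios were above 1, 0 were called, and the median was 0.12. ER-associated degradation had 0 of 19 genes called and a median of 0.09. The sensors and transcription factors of the unfolded protein response had 0 of 9 called and a median of 0.07. XBP1, the spliced effector of IRE1, had 2594 and 2574 counts, and HERPUD1, an ATF6 target in degradation, 1439.9 and 1725. EIF2AK3, which encodes PERK, had 514 and 629, a ratio of 1.22 (1.09 to 1.38).

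Promoter sequence was searched as a description of the lists. The ER stress response element, bound by ATF6 together with NF-Y, was searched as CCAAT and CCACG with any 9 bases between them, on both strands, in the 250 bases before each gene's start (RefSeq, GRCh38.p14). It was found in 22 of 27305 promoters (0.0806%) and in 6 of 30 ER chaperone and foldase promoters (20%). The list gathers genes of known ER folding function, so its share describes the list and not the difference between the libraries. All 6 of those genes had a ratio above 1, and CALR, CRELD2 and ERO1LB were called higher. Among the 8980 members with a promoter in that table, 14 held it, 12 of them with a ratio above 1. Of the promoters of genes called higher, 4 of 278 held it, and 0 of 155 of genes called lower. ER-associated degradation promoters held it in 0 of 17. The 6 stretches are shown because their genes belong to the folding list described above, with the match in capitals, read 5′ to 3′ on the gene's strand.
HSPA5 (chr9:125241376-125241424, minus strand): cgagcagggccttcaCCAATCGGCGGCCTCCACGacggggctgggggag
HSP90B1 (chr12:103930201-103930354, plus strand): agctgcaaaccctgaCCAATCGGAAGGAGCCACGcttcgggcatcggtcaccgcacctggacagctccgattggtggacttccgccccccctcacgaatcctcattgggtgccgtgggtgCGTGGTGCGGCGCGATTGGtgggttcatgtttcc
CRELD2 (chr22:49918539-49918587, plus strand): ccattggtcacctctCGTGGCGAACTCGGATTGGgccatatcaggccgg
CALR (chr19:12938369-12938417, plus strand): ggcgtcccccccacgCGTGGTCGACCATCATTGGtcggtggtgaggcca
CANX (chr5:179698763-179698811, plus strand): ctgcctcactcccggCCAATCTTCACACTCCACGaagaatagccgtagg
ERO1LB (chr1:236282168-236282208, minus strand): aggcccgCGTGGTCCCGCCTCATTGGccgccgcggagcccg
The HSP90B1 stretch, chaperone GRP94, carries 2 matches, the farther at 194 bases and the nearer at 89 bases before the start. In HSPA5 the match begins 66 bases before the start, in CRELD2 80, in CANX 151, in CALR 225 and in ERO1LB 243. The element reads CCAAT first on the gene's strand in HSPA5 and CANX and on the opposite strand in CRELD2, CALR and ERO1LB. The ratios of these genes ran from 1.18 for CANX, the lectin chaperone calnexin, to 1.44 for CRELD2.

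Genes of the ATF4 arm lay on the lower side where they were called. Of 18 kinases and transcription factors of the arm, 4 were lower and 0 higher, with a median log2 ratio of -0.05. Among all genes 1.82% were lower and 3.44% higher. JDP2, a repressor of the AP-1 family, had 333 counts in the control and 219.6 in the knockdown library, 1.52-fold lower (1.28 to 1.81). TRIB3, a pseudokinase that feeds back on ATF4, had 2049.6 and 1499.7, 1.37-fold lower (1.28 to 1.46). ATF3 had 308 and 242, 1.27-fold lower (1.07 to 1.51), and CEBPG, a dimer partner of ATF4, 2057 and 1644, 1.251-fold lower (1.17 to 1.34). ATF4 itself had 6581 and 5793, a ratio of 0.88 (0.85 to 0.912), and DDIT3, which encodes CHOP, 1344 and 1184, a ratio of 0.881 (0.814 to 0.953), neither of them past the size. Transcript level leaves out the translational control of ATF4.

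The effectors of that arm were mixed, beside shares over all genes of 1.82% lower and 3.44% higher. Of 15 amino acid transporters, 2 were lower, 1 higher and the median was -0.09. SLC7A11, the cystine importer, had 3419 and 2309 counts, 1.48-fold lower (1.4 to 1.56), and SLC1A4, a neutral amino acid exchanger, 433 and 299, 1.45-fold lower (1.245 to 1.68). On the other side, the glycine transporter gene SLC6A9 had 242 and 308, 1.27-fold higher (1.07 to 1.51). Among 15 genes of serine, one-carbon, proline and asparagine synthesis only CTH, the cystathionine lyase of cysteine synthesis, was called (433 and 311, 1.39-fold lower, 1.2 to 1.61), and ASNS had 4105 and 3694, a ratio of 0.9 (0.86 to 0.941). None of 19 cytosolic tRNA synthetase genes was called. Of 26 glutathione and stress effector genes 4 were lower: CHAC1, SESN2 (713 and 495), which restrains mTORC1, the lipoprotein receptor gene VLDLR (492 and 378) and DDIT4 (2086 and 1651), another mTORC1 inhibitor. The median of that list was 0.02, above that of the other ATF4 lists.

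An amino acid response element, the composite site of ATF4 and C/EBP factors, was searched as TGATG, any base, AA. It stood in 870 of 27305 promoters (3.19%), in 111 of the 8980 members' promoters (1.24%), in 4 of 155 promoters of genes called lower (2.58%) and in 2 of 278 of genes called higher (0.719%). ATF3 and CHAC1 are the called list genes that held it, and their stretches follow with the match in capitals.
ATF3 (chr1:212565201-212565238, plus strand): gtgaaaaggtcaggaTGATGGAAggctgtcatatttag
CHAC1 (chr15:40953247-40953284, plus strand): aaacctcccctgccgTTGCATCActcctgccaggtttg
The match lies 191 bases before the start of ATF3 and, on the opposite strand, 209 bases before that of CHAC1. The same pattern, with any base at its open position, stood before ASNS and MTHFD1L, whose ratios of 0.90 were not called. It also stood before SLC1A3 (0.839), PPP1R15B (0.932), IARS (0.945), GOT1 (0.989) and AARS (1.05), none of them called.

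Cholesterol synthesis genes were slightly lower as a list without passing the size singly. Of 21 enzymes 17 had a ratio under 1, 11 with an interval under 1, and 0 were called, with a median log2 ratio of -0.15. Over all genes 54.2% had a ratio above 1, and 31.4% had an interval that left out 1 on either side. Shares called over all genes were 1.82% lower and 3.44% higher. SQLE, squalene epoxidase, had the lowest ratio, with 499 counts in the control and 402 in the knockdown library, a ratio of 0.805 (0.704 to 0.919). IDI1 had 1472 and 1226, and HMGCS1 928 and 814. Of 15 measured sterol regulators and uptake genes, 12 were not called, 2 were lower and 1 higher. Their ratios lay on both sides of 1 (7 above and 8 under), with a median of -0.02, so only the called genes differed more. SREBF2, whose product activates the pathway's genes, had 2295 and 1586, 1.45-fold lower (1.36 to 1.54), and INSIG1, which retains its precursor in the ER, 1048 and 694, 1.51-fold lower (1.37 to 1.67). ABCA1, the cholesterol exporter of liver X receptor control, went the other way, at 1475 and 2086, 1.41-fold higher (1.32 to 1.51). A sterol element, searched as CACCC followed directly by CAC, stood in 646 of 27305 promoters (2.37%), in 0 of 16 synthesis enzyme promoters and in those of SREBF2 and ABCA1. The SREBF2 stretch is shown because that gene was the called activator.
SREBF2 (chr22:41832958-41832995, plus strand): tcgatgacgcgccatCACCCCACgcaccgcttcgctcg
The match begins 132 bases before the start.

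Lipid droplet and fatty acid oxidation genes were called on the lower side. Of 21 genes of the PPAR and lipid droplet list, 4 were lower and 0 higher, with a median log2 ratio of -0.03. Among all genes 1.82% were lower and 3.44% higher. Beside ANGPTL4 these were PLIN2 (3943 and 2827, 1.39-fold lower, 1.33 to 1.46), PDK4 (329 and 259, 1.27-fold lower, 1.07 to 1.5), a brake on pyruvate oxidation, and SLC25A20 (508 and 404, 1.26-fold lower, 1.1 to 1.44), the carnitine carrier of mitochondria. In fatty acid synthesis and desaturation, 1 of 19 was lower, the desaturase gene SCD (2827 and 2244, 1.26-fold lower, 1.19 to 1.33), and 1 higher, its relative SCD5 (532 and 672, 1.26-fold higher, 1.12 to 1.42). FASN had 5725 and 4861, a ratio of 0.849 (0.817 to 0.882). Of 24 glycolysis genes only TXNIP, an inhibitor of glucose uptake, was called, with 3771 and 5425, 1.44-fold higher (1.38 to 1.5). Hypoxia response genes had 1 of 16 lower, DDIT4, and VEGFA had 6594 and 6798.

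Interferon-stimulated genes were called on the higher side alone. Of 46 measured effectors 11 were higher, 0 lower and 39 had a ratio above 1, with a median log2 ratio of 0.17. Among all genes 3.44% were higher, 1.82% lower and 54.2% had a ratio above 1. IFIT1, which binds foreign 5′ ends of RNA, had 2261 counts in the control and 3190.2 in the knockdown library, 1.41-fold higher (1.34 to 1.49). OAS2, a double-stranded RNA sensor, had 1289 and 1781, 1.38-fold higher (1.29 to 1.49), and OASL, 1908 and 2512, 1.32-fold higher (1.24 to 1.4). TRIM22, a ubiquitin ligase, had 149 and 206, 1.38-fold higher (1.11 to 1.72). The best known members were mostly under the size: IFIT3 had 7056 and 8694, a ratio of 1.23 (1.19 to 1.27), ISG15 3885 and 4391, a ratio of 1.13 (1.08 to 1.18), and MX1 511 and 578, a ratio of 1.13 (1.0 to 1.28). Of 18 sensors and regulators 4 were higher and 0 lower, with a median of 0.09. These were IFIH1, the RNA sensor MDA5 (554 and 726, 1.31-fold higher, 1.17 to 1.47), TMEM173, the DNA pathway adaptor STING (1219.5 and 1561, 1.28-fold higher, 1.19 to 1.38), TLR3 (158 and 202) and DHX58 (355 and 451).

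The interferon-stimulated response element was searched as TTTC, any 2 bases, TTTC, on both strands. It stood in 839 of 27305 promoters (3.07%) and in 198 of the 8980 members' promoters (2.2%). Of promoters of genes called higher 16 of 278 held it (5.76%), and 1 of 155 of genes called lower (0.645%). Among effector promoters it stood in 23 of 42 (54.8%), a share that describes a list of known interferon-stimulated genes and not the libraries. Of the 21 effectors that held it and were measured, 18 had a ratio above 1 and 5 were called higher. Over all 46 measured effectors, with or without the element, 39 had a ratio above 1 and 11 were called higher. Effectors with the element were thus not set apart from the whole list. Below are 3 of these 5, chosen for short stretches, with matches in capitals.
IFIT1 (chr10:89392492-89392544, plus strand): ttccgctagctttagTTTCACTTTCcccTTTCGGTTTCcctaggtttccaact
IFITM1 (chr11:313985-314024, plus strand): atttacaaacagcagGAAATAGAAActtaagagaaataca
TRIM5 (chr11:5685077-5685116, minus strand): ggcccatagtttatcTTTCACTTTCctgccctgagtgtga
IFIT1 holds 2 matches, at 116 and 103 bases before the start. In IFITM1, a membrane inhibitor of virus entry, the match stands 40 bases before the start on the opposite strand. TRIM5, a restriction factor, has it 27 bases before the start. IFITM1 had 501 and 648 counts and TRIM5 459.8 and 584. OAS3, which carries 2 matches, had the ratio 0.89 and was not called.

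Inflammatory mediators were called mostly on the higher side. Of 21 chemokines, cytokines and growth factors 7 were higher and 2 lower, with a median log2 ratio of 0.23. Among all genes 3.44% were higher and 1.82% lower. CCL20, which attracts CCR6 cells, had 112 and 193 counts, 1.73-fold higher (1.36 to 2.2), CXCL16 98.6 and 161, 1.63-fold higher (1.26 to 2.12), and CX3CL1, fractalkine, 351 and 542, 1.54-fold higher (1.35 to 1.77). CSF1, the macrophage growth factor, had a higher level per length (76.4 FPKM and 107 FPKM), at 9251 and 13239, 1.43-fold higher (1.39 to 1.47). TNFSF10, the death ligand TRAIL, had 589 and 958, 1.63-fold higher (1.47 to 1.81). The interleukin 1 genes parted: IL1B had 1547 and 2053, 1.33-fold higher (1.24 to 1.42), and IL1A 2416 and 1755, 1.38-fold lower (1.29 to 1.46). IL11 had 938 and 1309.9, 1.4-fold higher (1.28 to 1.52), and IL32 632 and 499.9, 1.26-fold lower (1.12 to 1.42). CXCL8 and IL6 were not called, at ratios 1.13 (1.08 to 1.18) and 1.2 (1.15 to 1.26). Of 20 NF-kB subunits and feedback inhibitors 1 was higher, NFKBIA, the inhibitor IkBa (2703 and 3399, 1.26-fold higher, 1.2 to 1.32). Of 10 complement genes 3 were higher: C1R (230.4 and 369.7, 1.6-fold higher, 1.36 to 1.9) and C1S (152 and 206), the proteases of the first component, and the central component C3 (6956 and 9093, 1.31-fold higher, 1.27 to 1.35).

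Beside shares over all genes of 3.44% called higher and 1.82% lower, keratin genes had the highest median of the 54 lists, a log2 ratio of 0.30. All 9 measured had a ratio above 1 and 4 were called, although KRT10, at 1.004, would fall under 1 with scaling by total reads, which shifts log2 ratios by -0.03. KRT19 had 4995 counts in the control and 6963 in the knockdown library, 1.39-fold higher (1.34 to 1.45), KRT80 7388 and 9633, 1.3-fold higher (1.26 to 1.34), and KRT81, a hair keratin, 9386 and 13520.2, 1.44-fold higher (1.4 to 1.48). KRT86 had 216 and 274. The simple epithelial keratin genes KRT8 (6631 and 7733) and KRT18 (4771 and 5325) were not called. Among 17 junction genes 3 were higher: the desmosomal linker gene PPL (439.7 and 681, 1.55-fold higher, 1.37 to 1.75), JUP, plakoglobin (1985 and 2639, 1.33-fold higher, 1.253 to 1.41), and CLDN7, a claudin (791 and 995, 1.26-fold higher, 1.14 to 1.38). Junction genes lay on both sides of 1: 11 had a ratio above 1, 8 with an interval above 1, and 6 a ratio under 1, 4 with an interval under 1. Of 8 S100 genes S100A6 and the motility-linked S100A4 (3839 and 5046, 1.31-fold higher, 1.26 to 1.37) were higher. Among 17 cystatin and cathepsin genes 4 were higher and 1 lower. The higher ones were the secreted cystatins CST4, CST1 and CST2 (226 and 344) and the cathepsin gene CTSF (876 and 1110.1), and the lower one the leukocystatin gene CST7 (355 and 281). None of 35 lysosomal hydrolase and membrane protein genes was called, although 30 had a ratio above 1, 12 of them with an interval above 1. Over all genes 54.2% had a ratio above 1.

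Matrix genes were called on both sides, beside shares over all genes of 3.44% higher and 1.82% lower. Of 17 collagens 3 were higher, COL6A1 (3777 and 5173, 1.37-fold higher, 1.31 to 1.43), COL8A1 (3268 and 4444, 1.36-fold higher, 1.3 to 1.42) and COL13A1 (5430.4 and 6821, 1.26-fold higher, 1.21 to 1.3), and 2 lower, COL27A1 (901 and 681) and COL16A1 (249.5 and 186). Of 18 laminins and other glycoproteins 3 were higher. LAMA5 had 8203 and 11464 counts, 1.4-fold higher (1.36 to 1.44), LAMA4 207 and 309, 1.49-fold higher (1.246 to 1.79), and TNC, the anti-adhesive tenascin, 1596 and 2064, 1.29-fold higher (1.21 to 1.38). The lower one was EFEMP2, an elastic fibre protein (265 and 205). All 17 collagen processing and crosslinking genes had a ratio above 1, the lowest being LOX at 1.002, which the same scaling would turn, and the lysyl oxidase gene LOXL4 was called (3883 and 5775, 1.49-fold higher, 1.43 to 1.55). An interval above 1 was found for 10 of these 17. No integrin was called among 13, 12 of them with a ratio above 1 and 9 with an interval above 1. The share of all genes with a ratio above 1 was 54.2%. Metalloproteases and inhibitors had 2 higher and 2 lower of 18: TIMP3 (3299 and 4719, 1.43-fold higher, 1.37 to 1.5) and ADAMTS15 (1693 and 2238) against the collagenase gene MMP1 (1051 and 730.5, 1.44-fold lower, 1.31 to 1.58) and ADAMTS6 (617 and 446). SPINT1, an inhibitor of hepatocyte growth factor activator, was the only one of 15 plasminogen system and serpin genes called (316 and 475, 1.5-fold higher, 1.3 to 1.74), and TGFBR3, betaglycan, was lower among 13 proteoglycans (782 and 569, 1.37-fold lower, 1.23 to 1.53).

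Guidance, TGF-beta and EGFR family genes had called members on the higher side alone. Over all genes 3.44% were called higher and 1.82% lower, and the counts below are to be read beside these shares. Of 25 semaphorin, plexin and ephrin genes 6 were higher and 0 lower, with a median log2 ratio of 0.11. SEMA3B, a secreted semaphorin, had 1377 and 1957 counts, 1.42-fold higher (1.33 to 1.52), and SEMA3A 695 and 913, 1.31-fold higher (1.19 to 1.45). Their receptor genes PLXNA1 (6170.0 and 8295, 1.34-fold higher, 1.3 to 1.39) and PLXND1 (1784 and 2318, 1.3-fold higher, 1.22 to 1.38) were higher too, with EFNB2 (1239 and 1600.1) and EPHA4 (207 and 267). Of 25 TGF-beta and BMP genes 4 were higher and 0 lower, but 9 ratios were under 1. The median of that list, 0.03, was close to the 0.01 of all genes. BMP4 had 1444 and 1959.9, 1.36-fold higher (1.27 to 1.45), its target gene ID1 1409.7 and 2106, 1.49-fold higher (1.4 to 1.6), the activin binder FST 564 and 751, and LTBP1, which holds latent TGF-beta, 1064 and 1362. In the EGFR family 2 of 12 were higher, the receptor gene ERBB3 (272 and 384, 1.41-fold higher, 1.21 to 1.66) and the ligand gene EREG (668 and 865, 1.29-fold higher, 1.17 to 1.43). Among 22 immediate early genes DUSP4, a phosphatase of ERK, was higher (6958 and 10221, 1.47-fold higher, 1.42 to 1.51), and EGR1 (396 and 307) and ATF3 were lower. The p53 targets had TP53I3 higher (259 and 364) and TP53INP1 lower (285 and 227) of 22. The actin and contractile list had TAGLN lower of 28 (435 and 314, 1.38-fold lower, 1.19 to 1.61).

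Of the 54 gene lists, 20 had no called gene, 16 had called genes only on the higher side, 8 only on the lower and 10 on both. Lists with none called included 35 S phase and nucleotide supply genes (median log2 ratio -0.02), 34 mitotic genes (0.05), 29 proteasome genes (0.03), 16 heat shock genes (0.04) and 25 YAP/TAZ targets (-0.01). Ratios ran from 0.899 (POLE) to 1.08 (FEN1) for S phase, from 0.919 (CENPE) to 1.16 (KIF20A) for mitosis and from 0.917 (PSMC1) to 1.13 (PSMA6) for the proteasome. They ran from 0.94 (HSP90AA1) to 1.18 (BAG3) for heat shock and from 0.821 (RBMS3) to 1.13 (NT5E) for YAP/TAZ targets. The 13 circadian clock genes had a median of -0.12 and 10 ratios under 1, PER1 being the lowest at 256 and 206 counts. MYC had 5047 and 4927, a ratio of 0.976 (0.939 to 1.02).

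By annotated location, called genes were most frequent outside the cell. This grouping was chosen after the values were seen and uses the gene ontology terms of the deposited table. Of 684 members annotated to the extracellular region or space, 90 were called higher (13.2%) and 16 lower (2.34%), beside shares over all genes of 3.44% higher and 1.82% lower. The shares called higher were 5.95% of 1982 plasma membrane genes, 5.51% of 1089 ER genes, 4.23% of 402 lysosomal genes, 2.94% of 1499 mitochondrial genes, 1.89% of 4446 nuclear genes and 0.294% of 340 ribosomal genes. At these locations the shares called lower ran from 0.588% of ribosomal genes to 1.84% of ER genes. Annotations overlap, so a gene can count in several. In each of the 5 classes of mean count the share called higher was larger for extracellular genes than for the rest, with 20.7% against 8.13% in the lowest class and 8.88% against 0.798% in the highest.

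Marker genes were read for the labelled line, which is known as mesenchymal and without hormone receptors. VIM had 50246 counts in the control and 50739 in the knockdown library, a ratio of 1.01 (0.997 to 1.02), and the mesenchymal regulator ZEB1 2110.0 and 2049, a ratio of 0.971 (0.914 to 1.03). AXL and FN1 had ratios of 1.08, and CDH11 was called higher (1613 and 2165, 1.34-fold higher, 1.26 to 1.43). Of 5 epithelial markers only EPCAM reached a mean of 100 (135 and 112), and GRHL2, ESRP1, OVOL1 and CDH1 stood under it. The hormone receptor genes ESR1 and PGR had 0 counts in the control and 0.994 in the knockdown library, and FOXA1 is listed at 0. The other luminal markers were measured, ERBB2 with 2341 and 2462, a ratio of 1.05 (0.993 to 1.11), and GATA3 with 170.0 and 172, a ratio of 1.01 (0.813 to 1.26). The leukocyte marker AIF1 is listed at 0 in both libraries. The summed FPKM of the 5 markers went from 1.47 in the control to 1.41 in the knockdown for leukocytes, stayed at 1.83 for fibroblasts, and went from 0.290 to 0.217 for adipocytes and from 1.66 to 2.0 for endothelium. The endothelial sum held PECAM1, which had 91.6 and 172 counts, 1.88-fold higher (1.45 to 2.45), while KDR, the most abundant of the 5 in counts, had 220.4 and 209, a ratio of 0.947 (0.78 to 1.15). CDH5 had 2.01 and 10.9, VWF 13.1 and 11.9, and TEK 10.1 and 5.96. PECAM1 passed the limit of 100 through the knockdown library. The part of these markers in the results was not tested.

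The called genes were set beside the same genes in Ca1a, where TMEM126A had 265 counts in the control and 9381 in the overexpression library. The lines share no library and differ in medium, construct and in the genes they express, so ratios are given side by side. Of 382 genes called higher in the knockdown library 193 had a mean of at least 100 in Ca1a, and 34 of these were higher (17.6%) and 17 lower (8.81%) in the overexpression library. Over all 9582 genes measured in both lines, 3.21% were higher and 3.21% lower in Ca1a. Of 202 genes called lower, 145 had such a mean, and 6 were higher (4.14%) and 15 lower (10.3%). TMEM126A is counted among these 6, and the constructs fixed its direction in both lines. Seen from the 308 genes called higher and 308 called lower in Ca1a, the 34 are 11.04%, the 17 are 5.52%, the 6 are 1.95% and the 15 are 4.87%. The 34 genes higher in both include AGR2 (ratio 2.32 in MDA-MB-231 and 1.43 in Ca1a), PPL (1.55 and 1.35), LOXL4 (1.49 and 1.26), KRT80 (1.3 and 1.47), OAS1 (1.27 and 1.36) and PECAM1 (1.88 and 1.66). Against them, the 17 of opposite direction include SDF2L1 (1.52 and 0.77), DNAJC3 (1.28 and 0.8), TXNIP (1.44 and 0.6), IL11 (1.4 and 0.49), IL1B (1.33 and 0.75), TNC (1.29 and 0.67), SEMA3B (1.42 and 0.72), LTBP1 (1.28 and 0.7), PLXND1 (1.3 and 0.72) and L1CAM (1.28 and 0.5). Lower here and higher there were TMEM126A itself, JDP2 (0.66 and 1.3), PDK4 (0.79 and 1.28), SCD (0.79 and 1.29), DDAH1 (0.78 and 1.27) and RTKN2 (0.80 and 1.27). Lower in both were ANGPTL4 (0.45 and 0.68), ADTRP (0.58 and 0.68), SESN2 (0.69 and 0.79), VLDLR (0.77 and 0.69), EGR1 (0.77 and 0.7) and IL1A (0.73 and 0.71), among 15. Many of the genes above, such as SPDEF, IFIT1, CST1 and CYTH4, had means under 100 in Ca1a and so have no counterpart.

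**Figure D4:**
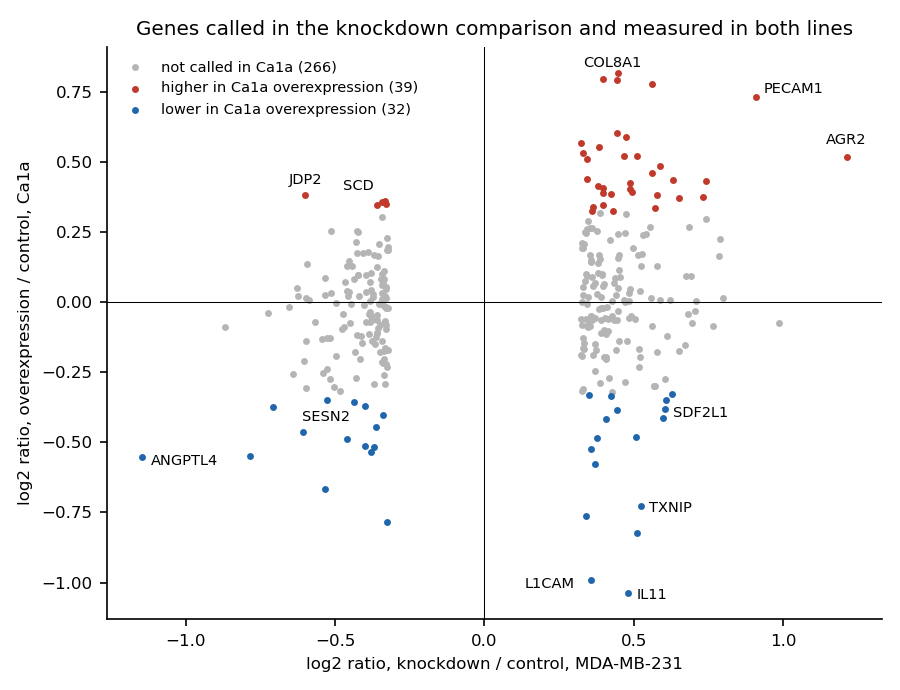
Log2 ratio of TMEM126A overexpression to control in Ca1a (vertical axis) against that of knockdown to control in MDA-MB-231 (horizontal axis) for called genes measured in both lines, TMEM126A left out. Genes called in Ca1a are red (39 higher) and blue (32 lower), and AGR2 and PECAM1 are among those higher in both.

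The second deposited table gave the same directions. It was made from the same libraries, so it checks how the ratios were computed and is no replicate of the differences. Of 584 called genes 583 had a FPKM ratio, and all 583 lay on the same side of 1. The standard deviation of the difference between the log2 ratios was 0.06 over 11087 genes. The exception was NSF, a fusion ATPase with a near-identical copy, which had 142 and 268 counts but 0 and 0.00836 FPKM. Reads may be shared among the copies of NSF, among CST1, CST2 and CST4, and between KRT81 and KRT86, so these values are uncertain. No source used here gives the strand setting of the counting, so overlapping or antisense genes such as RNASE4 and SLCO4A1-AS1 are uncertain too.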

How the data were processed

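Total RNA of 4 cell line cultures was sequenced after lentiviral infection. The submitters' processing notes name HISAT2, HTSeq, Cufflinks and DESeq beside the builds hg38 and GRCh38.p5. Tool versions, roles and strand setting: not given in the sources used here. Deposited MDA-MB-231 values are a signal, the read count of each gene divided by its library's DESeq size factor, per the file headers. For Ca1a the authors deposited whole-number counts. FPKM of all libraries were deposited in a further table.

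Every MDA-MB-231 value was a whole multiple of the smallest one (100% within 1e-06), and these multiples were taken as reads, with size factors of 1.0062 for the knockdown and 0.993842 for the control. Ratios of the normalized values carry exact conditional binomial (Clopper-Pearson) 95% intervals. A library at 0 was put at 3 reads as a bound. Reads without molecular identifiers need not come from separate molecules. The authors' fold and p-value columns were not used. Some results are not reported here.

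The members and the 54 gene lists were chosen with earlier results of these data known. The naming rule took TMEM126A and TMEM126B, the 15 protein-coding called genes with the largest ratios and the 8 called genes with the largest count differences on each side, up to 5 called members a list, all assembly factors, and markers. Uncalled list members, further called ones, noncoding genes and the genes named in the comparison with Ca1a were chosen after their values were seen, as was the grouping by annotation. Positions are from GENCODE release 29 on GRCh38, and 8980 of 11091 members had a RefSeq promoter.

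Alternatives were FPKM, scaling by total reads or TMM, centring on the median, pseudocounts of 1 and 5, removal of trends over mean expression or transcript length, means of at least 20, 50 or 200, no interval condition, protein-coding genes alone, and 1.2-fold and 2-fold sizes. TMM came from edgeR 4.0.16 under R 4.3.3. All else used python 3.11.15, with scipy 1.17.1, numpy 2.4.6, pandas 2.3.3 and, for plots, matplotlib 3.10.9.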

Additional observations from a re-analysis of the deposited data

How the results depend on the processing

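TMEM126A kept its direction under all 8 alternatives, and the median log2 ratios of the 54 lists moved by at most 0.07 under 12 settings. The genes called lower numbered 306 with a mean of at least 20 and 346 at a 1.2-fold size, against 202, and the 2-fold size left 3 higher and 2 lower. At 1.5-fold, the 71 higher and 26 lower genes became 192 and 103 with a mean of at least 20, 125 and 55 with at least 50, and 41 and 10 with at least 200, and FPKM gave 44 lower. At 1.5-fold in both lines, 30 genes higher in the knockdown library were measured in Ca1a, of which 1 was higher and 0 lower there. Of 18 such genes lower in the knockdown library, 1 was higher in Ca1a, TMEM126A itself, and 0 lower. Over all 9582 genes measured in both lines, 0.344% were higher and 0.459% lower in Ca1a at this size. Scaling by TMM gave 348 higher and 238 lower genes, and removal of the trend over mean expression 331 and 246. No paired analysis was possible because each group held 1 library. Without the interval condition 411 genes were higher and 217 lower. Of the main calls, 201 higher and 105 lower ones were in the lowest of 5 equal classes of mean count (9.06% and 4.73% of its genes), against 1.58% and 0.361% in the highest class.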

Other observations

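Long noncoding RNA genes were called lower more often than protein-coding genes were, with 27 of 305 (8.85%) against 174 of 10530 (1.65%), and called higher about as often, with 11 (3.61%) against 364 (3.46%). Their median count was 213 against 1019, and called genes are more frequent at low counts, so the shares were not taken at equal levels. LINC00265 had 136 counts in the control and 79.5 in the knockdown library, and HNRNPU-AS1 864 and 597. The abundant nuclear RNA NEAT1 had 20656 and 16835 counts, a ratio of 0.815 that did not reach the size.

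By chromosome the median log2 ratio ran from -0.06 on chromosome 18 (150 genes) to 0.04 on chromosome 22 (242 genes). By transcript length it ran from 0.03 in the shortest of 5 classes of equal number to -0.02 in the longest.

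Among genes under the mean of 100, ABCG1, a cholesterol exporter like ABCA1, had 48.3 counts in the control and 117 in the knockdown library, 2.43-fold higher (1.72 to 3.47).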
